A study of Rattus norvegicus with 12 samples.

Results

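The Incubation contrast, IC21D over IC1D, set the nucleus accumbens shell (NAcsh) of rats isolated for 21 days of forced abstinence from cocaine beside that of rats isolated for 1 day. It used 6 of the 12 rats sequenced, 3 in each group, and 10820 of the 41064 Ensembl transcripts listed for each rat. These were the transcripts with at least 10 counts in every 1 of the 6 isolated rats, so that graded differences are described and not transcripts missing from a library. All 12 rats were adult male Sprague-Dawley animals that had self-administered cocaine, and none was drug naive. IC rats were singly housed before and during abstinence. EE rats, used here for the same comparison in enriched housing (EE21D over EE1D), were moved for abstinence to a larger cage that held other rats, toys, tubes, nesting material and a wheel to run in. Every rat was given a 1-h cue reactivity test after abstinence, in which lever presses delivered the light and tone once paired with cocaine but no drug, and the brain was removed and frozen directly after it. Bilateral NAcsh punches were later taken from the frozen brain and pooled for each rat. IC21D rats were further from their last cocaine, older and longer isolated than IC1D rats, and these differences cannot be told apart.

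Incubation of craving is the growth of cue-driven drug seeking over weeks of abstinence in animals that receive no further drug. The NAcsh is a ventral part of the striatum, built mostly of spiny projection neurons that receive glutamate input from cortex, hippocampus and amygdala and dopamine input from the midbrain, and long abstinence is known for stronger glutamate synapses onto these neurons. The comparison addresses which transcripts differ in the shell between the start of this period and a later point.

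Transcripts carry only an Ensembl identifier in the files, which give no gene names. They are therefore described below by level and by rank, with the identifier for 6 of them, and the punches were not checked against cell type markers. Isoforms of a gene overlap, and their counts depend on how the quantifying program divided shared reads among them.

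Total counts were between 16698916 and 25671717 in the 6 isolated rats. Rats are named by the animal code in the labels. IC21D rat A24 stood apart. In it 13936 transcripts were detected with 1 or more counts, and 20383 to 22351 in each of the other 5 isolated rats. In A24 the 8 most abundant transcripts took 75.6% of its counts (Wilson 95% confidence interval 75.55% to 75.59%, for counting error only), against 52.1% to 68.6%. Of 3070 transcripts that were under 10 counts in exactly 1 isolated rat, 2444 were low in A24, and 112 to 138 in each of the others. Over the kept transcripts, the median Spearman correlation of A24 with the other isolated rats was 0.831, that of IC1D rat A20 was 0.861, and the other 4 were between 0.902 and 0.909. A24 had the highest or the lowest level of the 6 for 48.5% of kept transcripts and A20 for 42.9%, against 19.5% to 34.3% for the others. Between the groups, the share of counts on the 8 most abundant transcripts was 57.9% ± 9.31 (SD, n = 3) in IC1D and 64.9% ± 9.97 (SD, n = 3) in IC21D, a difference within the spread (exact permutation test, two-sided p = 0.5). The number of detected transcripts was 21630 ± 918.9 (SD, n = 3) in IC1D and 18790 ± 4289 (SD, n = 3) in IC21D (exact permutation test, two-sided p = 0.3). Rats 3 against 3 allow no two-sided p below 0.1.

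Of all listed transcripts, 14424 had 0 counts in all 6 isolated rats and 26640 had at least 1. The filter left out 15820 counted transcripts, of which 5888 were under 10 counts in all 6 rats, 6862 in 2 to 5 rats and 3070 in exactly 1. The kept transcripts held between 95.3% and 99.0% of each isolated rat's counts. Their median count was 130 in A24 and 219 to 340 in the other isolated rats.

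Pairs of rats from the same group and from different groups differed by similar amounts. The median absolute log2 difference over the kept transcripts was 0.35 to 0.44 for the 3 pairs of IC1D rats and 0.42 to 0.60 for the 3 pairs of IC21D rats. For the 9 pairs that joined an IC1D to an IC21D rat it was 0.27 to 0.59, with a median of 0.49. The pair most alike of all 15 crossed the groups, IC1D rat A2 with IC21D rat A9, at 0.27. Without A24, the 6 pairs across groups had a median of 0.40, and the 4 pairs within groups also had a median of 0.40.

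**Figure D1:**
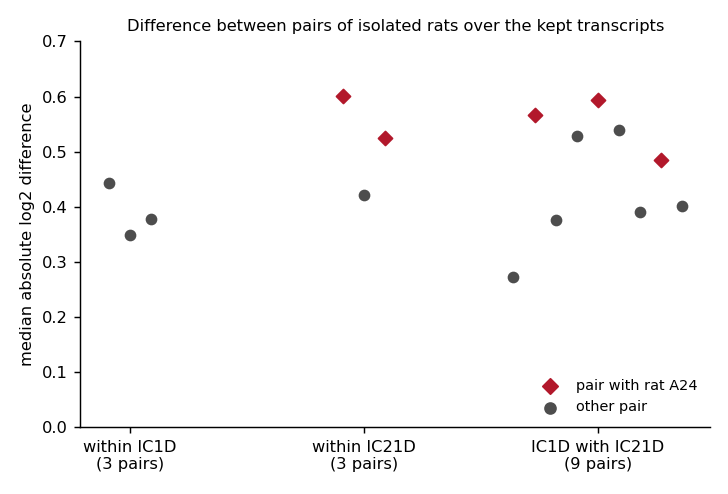
Median absolute difference in log2 CPM over the 10820 kept transcripts (vertical axis) for each pair of isolated rats, as 1 point a pair, within IC1D, within IC21D and between the groups; red diamonds are pairs that contain rat A24. The pairs across groups, at 0.27 to 0.59, overlap the pairs within groups, at 0.35 to 0.60.

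The spread was wider at 21 days. The SD of log2 CPM (counts scaled to a common library size with TMM factors) over the 3 rats of a group had a median of 0.34 in IC1D and 0.45 in IC21D, and was larger in IC21D for 6727 of the kept transcripts (62.2%). The same median was 0.35 in EE1D and 0.30 in EE21D. Without A24, the IC21D median was 0.30, over 2 rats. IC1D gave 0.25 without A20, 0.27 without A2 and 0.31 without A23.

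No transcript passed the test of the Incubation contrast. After Benjamini-Hochberg adjustment of the quasi-likelihood test in edgeR, 0 of 10820 (0%) were under 0.05, and the smallest adjusted p-value was 0.704. At an unadjusted p-value under 0.05, 333 transcripts (3.08%) were higher in IC21D and 423 (3.91%) were lower, 756 (6.99%) in all. limma-voom with quality weights also called 0 transcripts. DESeq2's Wald test, the test the study used, called 20 at an adjusted p-value under 0.05, 10 higher (0.0924%) and 10 lower (0.0924%). At an adjusted p-value under 0.1 it called 30. The study reported more differentially expressed transcripts for this contrast, from a larger set of transcripts with a lower count cutoff. Its number and the 20 are therefore not directly comparable. Of the 20, 14 had groups that did not overlap, against 10.4% of all kept transcripts. All 20 had an unadjusted p-value under 0.05 in edgeR, against 6.99% of all kept. Both tests used the same counts, so neither number is separate support for the 20. In 6 of the 20 the highest rat of the group with the higher mean was more than 5-fold above the lowest rat of that group. Without A24, DESeq2 called 10 transcripts, 2 higher and 8 lower, and 3 of them were among the 20. Without A20 it called 6, of which 4 were among the 20, and without A9 it called 179, of which 19 were among the 20.

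The sizes of the differences were mostly modest beside their errors. The median log2 fold change over the kept transcripts was -0.0028 and the median absolute log2 fold change was 0.29, with a median standard error of 0.35. The 5th and 95th percentiles were -0.78 and 0.91. A log2 difference over 1 was estimated for 424 transcripts that were higher in IC21D and 271 that were lower, and one over 2 for 55 and 24. Over all kept transcripts, the approximate 95% interval of the log2 fold change lay within ±1 for 4620 transcripts (42.7%), and for the others it reached past a 2-fold difference.

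Precision and the balance of directions both depended on level. Among the 857 transcripts with a mean below 50 counts over the isolated rats, the median log2 fold change was 0.31, 59 were higher and 14 lower at an unadjusted p-value under 0.05, and 8.52% had an interval within ±1. Among the 1584 transcripts with a mean of 1000 counts or more, the median was -0.020, 20 were higher and 75 lower, and 67.1% had an interval within ±1. Among the kept transcripts, higher ones thus outnumbered lower ones at low levels, and lower ones outnumbered higher at high levels. The filter used raw counts, and of 3070 transcripts under 10 counts in exactly 1 isolated rat, 2444 were low in A24. What part this had in the lean at low levels was not tested. With A24 left out and the filter applied to the other 5 isolated rats, the 1756 transcripts below 50 counts had a median of 0.06, with 44 higher and 24 lower, while the 1822 at 1000 counts or more had a median of -0.021, with 26 higher and 108 lower.

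**Figure D2:**
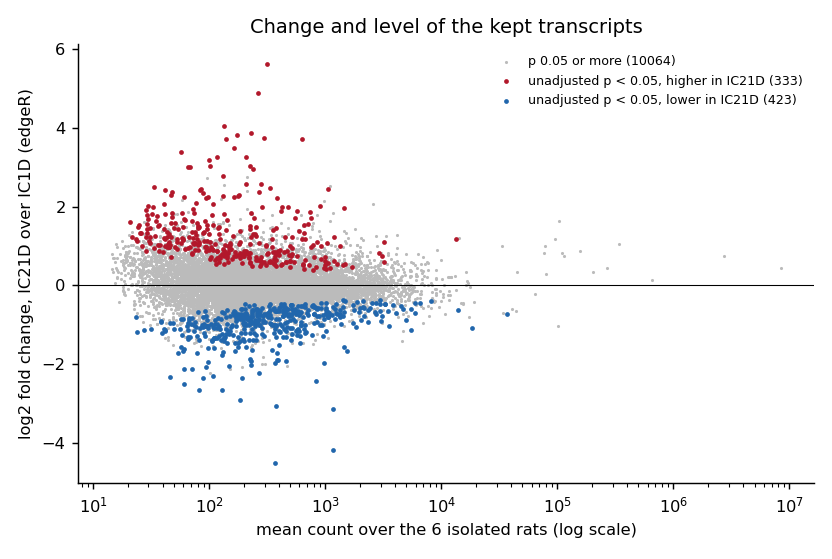
edgeR log2 fold change of IC21D over IC1D (vertical axis) against the mean count over the 6 isolated rats (horizontal axis, log scale), as 1 point a kept transcript; red and blue mark an unadjusted p-value under 0.05. Below a mean of 50 counts 59 points are red and 14 blue, at 1000 counts or more 20 are red and 75 blue, and none passed after adjustment.

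Separation of the groups was counted without a model. All 3 IC21D rats were above all 3 IC1D rats in TMM-scaled CPM for 496 transcripts (4.58%), and all 3 were below for 630 (5.82%), 10.4% of the kept transcripts in all. A random order of 3 rats against 3 separates the groups, in either direction, for 10% of transcripts on average. The 10.4% is near that share, so the number separated is not read as a result. The gap between the nearest rats of the groups was small, with a median of 0.13 on the log2 scale over these 1126 transcripts. It was over 1 for 9 transcripts that were higher in IC21D and 4 that were lower. Of the 1126, 491 had an unadjusted p-value under 0.05 in edgeR. The balance of directions depended on scaling. In CPM without TMM scaling, 89 transcripts were above and 583 below, and the median difference in mean log2 CPM over all kept transcripts was -0.34, against -0.03 with TMM scaling. Directions from edgeR, limma-voom and CPM are relative to TMM scaling unless another scaling is named, and those from DESeq2 to its own scaling.

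The transcript with the smallest p-value was higher in part of the IC21D group. ENSRNOT00000078285 had 13, 18 and 17 counts in IC1D rats A2, A20 and A23, and 17, 604 and 1208 in IC21D rats A9, A24 and A3. A24 and A3 were far above every other rat, and A9 was at the level of the IC1D rats, so the groups overlapped. TMM-scaled CPM averaged 0.724 ± 0.205 (SD, n = 3) in IC1D and 35.6 ± 30.1 (SD, n = 3) in IC21D. The log2 fold change was 5.62 (standard error 1.08, edgeR adjusted p = 0.704), and DESeq2 gave 5.63 (standard error 0.87, adjusted p = 1.06e-06). Over the 6 values, p was 0.2 (exact permutation test, two-sided). All 6 EE rats had between 11 and 28 counts. Without A9 this transcript passed edgeR's test (adjusted p = 4.63e-05), the only one to do so in that fit.

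The next on the higher side, ENSRNOT00000079862, separated the groups. It had 85, 57 and 47 counts in A2, A20 and A23, and 180, 67 and 214 in A9, A24 and A3. In TMM-scaled CPM these were 3.74, 2.04 and 2.65 in IC1D and 9.11, 5.99 and 9.21 in IC21D. Every IC21D rat was above every IC1D rat once depth was scaled, though the raw count of A24 was below that of A2. The log2 fold change was 1.53 (standard error 0.32, 95% interval 0.83 to 2.24, edgeR adjusted p = 0.704, DESeq2 adjusted p = 0.0101). Over the 6 values, p was 0.1 (exact permutation test, two-sided), the least that 6 rats allow. Any transcript that separates the groups has this p-value, so it adds nothing to the separation. EE rats were at the IC21D level at both times, 9.70 ± 1.92 CPM (SD, n = 3) in EE1D and 9.99 ± 2.30 CPM (SD, n = 3) in EE21D.

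On the lower side, ENSRNOT00000044413 had the smallest p-value. Its counts were 755, 1528 and 543 in IC1D rats A2, A20 and A23, and 359, 98 and 369 in IC21D rats A9, A24 and A3. Scaled, it lay at 39.5 ± 13.2 CPM (SD, n = 3) in IC1D and at 14.3 ± 4.90 CPM (SD, n = 3) in IC21D, with no overlap, and A20 was the highest and A24 the lowest of the 6. The log2 fold change was -1.47 (standard error 0.33, 95% interval -2.20 to -0.73, edgeR adjusted p = 0.704, DESeq2 adjusted p = 0.0405). EE1D and EE21D were at 18.5 ± 4.41 and 18.2 ± 4.20 CPM (SD, n = 3 each), nearer to IC21D.

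ENSRNOT00000065876, the next on the lower side, had 231, 428 and 261 counts in A2, A20 and A23, and 113, 68 and 129 in A9, A24 and A3. The 3 IC21D rats were close to each other after scaling, at 5.72, 6.08 and 5.55 CPM, and the IC1D rats were at 10.2, 15.3 and 14.7 CPM. The log2 fold change was -1.21 (standard error 0.28, 95% interval -1.82 to -0.60, edgeR adjusted p = 0.704, DESeq2 adjusted p = 0.0377). EE rats were again at the IC21D level, 5.95 ± 1.33 CPM (SD, n = 3) in EE1D and 6.12 ± 1.47 CPM (SD, n = 3) in EE21D. Over the isolated rats, this transcript and ENSRNOT00000044413 each had p = 0.1 (exact permutation test, two-sided), which follows from their separation of the groups.

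**Figure D3:**
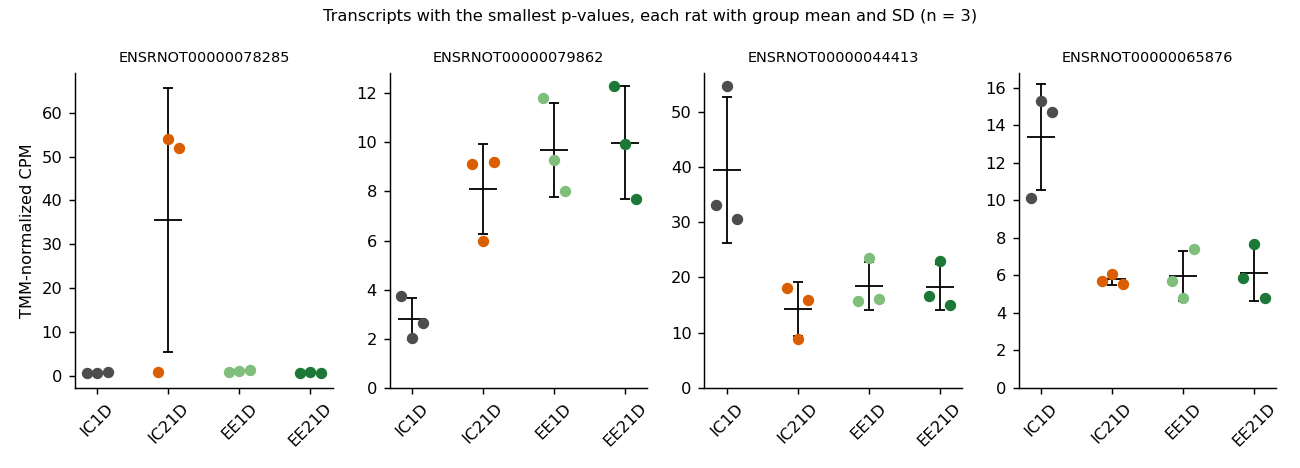
TMM-scaled CPM (vertical axis, 1 scale a panel) of the 2 transcripts with the smallest p-values in each direction, as 1 point a rat, with the group mean as a horizontal line and the SD as a bar (n = 3). In ENSRNOT00000078285 the IC21D mean of 35.6 rests on 2 of 3 rats, and in the other 3 panels IC1D stands apart from IC21D and from both EE groups.

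Over the 10 smallest p-values in each direction, the log2 fold changes were 1.45 to 5.62 among those higher in IC21D, with a median of 2.29, and -3.14 to -1.16 among those lower, with a median of -2.11. All 20 had an adjusted p-value of 0.704 in edgeR. The groups did not overlap for 8 of the 10 higher and 9 of the 10 lower, and DESeq2 called 7 and 9 of them. Of all 10820 kept transcripts, 10.4% did not overlap and DESeq2 called 20. The ranks were taken from the same counts, so these numbers follow from the choice and are no separate support. The fourth on the higher side was 28, 51 and 43 counts in A2, A20 and A23 and 157, 164 and 342 in A9, A24 and A3, a log2 fold change of 2.77 (standard error 0.61). Here each IC21D rat was at least 157 counts and no IC1D rat was above 51.

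The seventh on the higher side followed the pattern of ENSRNOT00000078285 among the isolated rats. It had 42, 42 and 12 counts in A2, A20 and A23, and 27, 345 and 583 in A9, A24 and A3, so that A9 again lay among the IC1D rats. In enriched housing the order was the other way, with 327, 266 and 383 counts in EE1D and 58, 29 and 125 in EE21D. On the lower side, the ninth had 734, 869 and 441 counts in A2, A20 and A23 and 61, 28 and 112 in A9, A24 and A3, a log2 fold change of -3.07 (standard error 0.74). This transcript passed edgeR's test when EE1D rat A16, which had 36 counts against 487 and 712 in the other EE1D rats, was left out (adjusted p = 0.0250). The eighth on the lower side had 2826, 3339 and 234 counts in A2, A20 and A23 and 206, 38 and 353 in A9, A24 and A3, and the groups overlapped because A23 was at the IC21D level.

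A pair of the separated transcripts was chosen for their level. Of those with all IC21D rats above all IC1D rats, the one with the most counts averaged 335.4 ± 75.6 CPM (SD, n = 3) in IC1D and 438.2 ± 10.3 CPM (SD, n = 3) in IC21D (log2 fold change 0.39, standard error 0.21, edgeR adjusted p = 0.724). Of those below, it averaged 2136 ± 645.1 CPM (SD, n = 3) in IC1D and 1287 ± 245.8 CPM (SD, n = 3) in IC21D (log2 fold change -0.73, standard error 0.28, edgeR adjusted p = 0.704). In the latter, A20 was again the highest rat, at 2871 CPM.

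Both transcripts that the study names with an identifier fell outside the kept set. The study named them for enriched against isolated housing at 21 days, with increases in EE rats by RNA-seq and RT-qPCR, and not for the Incubation contrast. ENSRNOT00000016026, of Camk2d, which encodes a subunit of calcium/calmodulin-dependent protein kinase II, had 0, 91 and 649 counts in A2, A20 and A23 and 0 in all 3 IC21D rats. ENSRNOT00000026646, of Eif4e2, which encodes a cap-binding protein of translation, had 0, 33 and 49 counts in the same IC1D rats and 0 in all 3 IC21D rats. In each, 1 IC1D rat was also at 0, so the groups were not separated, and neither entered the test. In EE1D, the Camk2d transcript had 34, 229 and 0 counts and the Eif4e2 transcript had 46, 0 and 58, so rats with 0 counts were found there too. In EE21D, the Camk2d transcript had 42, 291 and 90 counts and the Eif4e2 transcript had 39, 37 and 89.

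The number of transcripts at an unadjusted p-value under 0.05 turned on single rats. Without A20 it dropped from 756 to 303, 159 higher and 144 lower. Without A9 it was 1330, 682 higher and 648 lower. Leaving out A2, A23, A24 or A3 gave between 633 and 994. The lean toward lower transcripts was largest without A24, with 225 higher and 439 lower, and higher transcripts outnumbered lower ones without A20 or A9. With A24 left out and the filter applied to the other 5 isolated rats, 262 were higher and 497 lower of 13264 tested, and edgeR called 0.

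**Figure D4:**
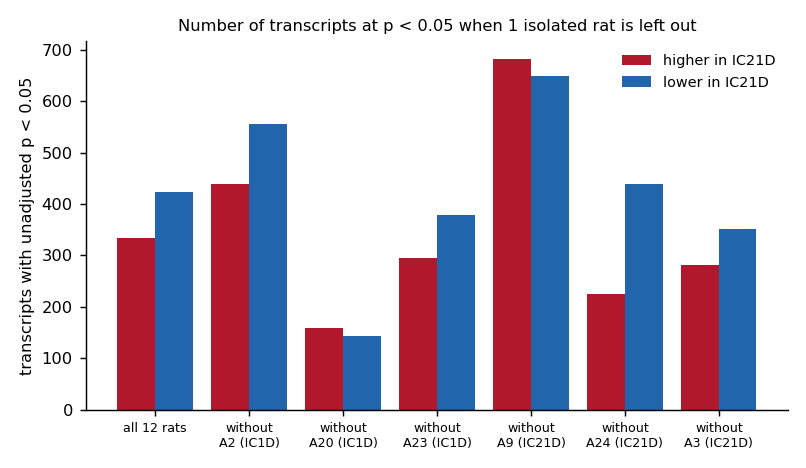
Number of kept transcripts at an unadjusted p-value under 0.05 in edgeR (vertical axis), higher in IC21D in red and lower in blue, with all 12 rats and with each isolated rat left out in turn. The total runs from 303 without A20 to 1330 without A9, around 756 with all rats.

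In enriched housing the estimates for the same transcripts were smaller. EE21D over EE1D had a median absolute log2 fold change of 0.20, against 0.29 in isolation, and 204 transcripts (1.89%) had an unadjusted p-value under 0.05, 95 higher and 109 lower. edgeR called 0 (smallest adjusted p = 0.296) and DESeq2 called 15. The groups did not overlap for 7.32% of the transcripts, 384 above and 408 below, where a random order of 3 against 3 gives 10% on average. Of the kept transcripts, 10342 had at least 10 counts in all 6 EE rats too, and 195 had 0 in some EE rat. The test of the difference itself, the housing by abstinence interaction, called 0 transcripts in edgeR (smallest adjusted p = 0.729), with 627 (5.79%) at an unadjusted p-value under 0.05, and DESeq2 called 15.

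The estimates in the 2 housing conditions, which share no rats, more often had opposite signs than the same sign. Of all kept transcripts, 4410 (40.8%) had the same sign, with a Pearson r of -0.24 and a Spearman rho of -0.26 across transcripts, which are not independent of each other. Of the 333 transcripts higher in IC21D at an unadjusted p-value under 0.05, 129 (38.7%) were also higher in EE21D, where 49.1% of all kept transcripts were. Of the 423 lower, 133 (31.4%) were also lower in EE21D, against 50.9% of all kept. Their median log2 fold changes in enriched housing were small, at -0.10 and 0.13. An unadjusted p-value under 0.05 in both housing conditions was reached by 8 transcripts with the same sign and 25 with opposite signs.

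The share of counts on the 8 most abundant transcripts was ordered in opposite ways in the housing conditions, at 57.9% in IC1D and 64.9% in IC21D but 64.7% ± 9.21 (SD, n = 3) in EE1D and 57.8% ± 3.50 (SD, n = 3) in EE21D. With this share as a covariate, the same-sign share was 41.2%. Leaving out 1 rat at a time moved the same-sign share between 36.8%, without EE21D rat A13, and 51.7%, without EE21D rat A14, where r was -0.04. The lean toward opposite signs was thus lost without A14.

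**Figure D5:**
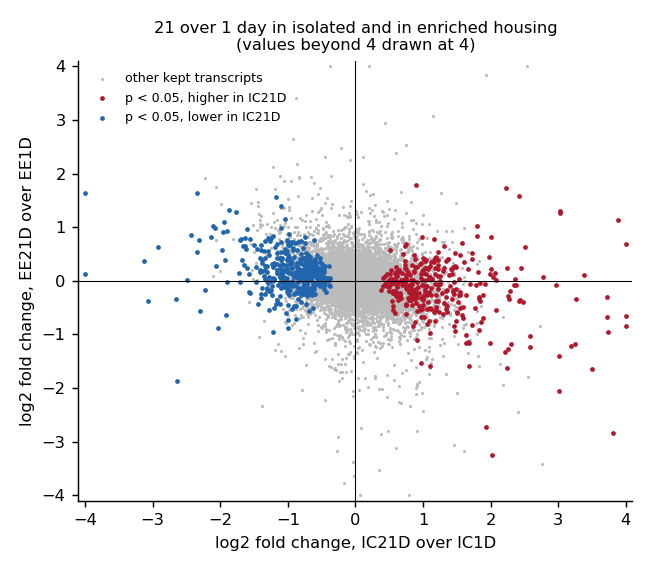
edgeR log2 fold change of EE21D over EE1D (vertical axis) against that of IC21D over IC1D (horizontal axis), as 1 point a kept transcript, with values beyond 4 drawn at 4; red and blue mark an unadjusted p-value under 0.05 in the isolated comparison. Most red points lie below 0 on the vertical axis and most blue points above it, at sizes well under those on the horizontal axis.

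Over all transcripts the EE rats lay about as often by either isolated group. Their mean log2 CPM over both times was nearer to IC21D for 5003 of the kept transcripts (46.2%) and nearer to IC1D for 5817 (53.8%). Among the 756 with an unadjusted p-value under 0.05 in the Incubation contrast, it was nearer to IC21D for 364 (48.1%). Among the 10 smallest p-values in each direction, it was nearer to IC21D for 8 of those higher and 4 of those lower. In a bulk punch such as these, fewer cells of a type and less RNA per cell cannot be told apart for any of the differences above.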

How the data were processed

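RNA from NAcsh punches of 12 rats (IC1D, IC21D, EE1D and EE21D, 3 rats each) was sequenced as single 75-base reads. Reads were aligned with HISAT2 2.1.0 to the Ensembl rat genome, and transcripts were quantified with StringTie 1.3.3.1 against a merged annotation (versions from the submitters' processing notes). The authors deposited a count for each of 41064 transcripts in each rat, as whole numbers without normalization. How StringTie's output was turned into whole counts, and whether strand was used, is not given in the sources used here. Groups came from the sample labels. Each library is 1 rat.

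Transcripts with at least 10 counts in all 6 isolated rats were tested with edgeR 4.0.16 in R 4.3.3 (quasi-likelihood test after TMM scaling, 1 coefficient for each of the 4 groups, all 12 rats, Benjamini-Hochberg adjustment over the 10820 transcripts, threshold 0.05). A standard error is the fold change on the log2 scale over the root of F. Levels are TMM-scaled CPM, with the sum over these transcripts as library size, and means of log2 CPM for the position of the EE rats had 0.1 CPM added. Total counts of 16698916 to 25671717 in the isolated rats set the counting error, and the common biological coefficient of variation between rats was 0.395 in edgeR. DESeq2 1.42.0 and limma-voom (limma 3.58.1) were alternatives, with other scalings, filters and sets of rats. The edgeR and DESeq2 steps were tested on simulated data, whose values are not quoted here. Single values were compared by exact permutation tests. In all 66 pairs, the libraries differed.

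The transcripts and lists were chosen with earlier results of these data known. Those described are the 2 that the paper names by identifier, the first 10 by p-value in each direction, of which 2 by identifier and some of the others by rank, and the separated transcript with the most counts in each direction. No table used here pairs the identifiers with genes, so sequences, lists of pathway genes and of markers of cell types, and per-gene sums were not analysed here.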

Additional observations from a re-analysis of the deposited data

Results flagged for a closer look

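The transcript with the sixth smallest p-value on the lower side separated the groups in opposite directions in isolated and in enriched housing. It had 444, 1027 and 241 counts in IC1D rats A2, A20 and A23, and 144, 105 and 138 in IC21D rats A9, A24 and A3. In enriched housing it had 155, 153 and 326 counts in EE1D and 480, 736 and 438 in EE21D. In TMM-scaled CPM, all IC21D rats were below all IC1D rats and all EE21D rats were above all EE1D rats. The log2 fold change of 21 days over 1 day was -1.63 in isolation and 0.80 (0.7991) in enriched housing. The interaction, a difference of -2.43 between them (standard error 0.54), did not pass edgeR's test after adjustment over all kept transcripts (adjusted p = 0.785). Of the 10820 kept transcripts, 41 were separated in opposite directions in the 2 housing conditions and 24 in the same direction. Separated in either direction were 10.4% of the kept transcripts in isolated housing and 7.32% in enriched housing. Whether 41 or 24 departs from what 2 unrelated comparisons would give was not tested.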

How the results depend on the processing

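With 3 rats a group and 42.7% of intervals within a 2-fold difference either way, the data limit what can be said of single transcripts, most of all below 50 counts. edgeR called 0 transcripts in the Incubation contrast under upper-quartile and RLE scaling, without the 8 most abundant transcripts, without a filter, with a minimum of 50 counts, with the 6 isolated rats alone, with limma-voom, and with the top-8 share as a covariate, and 1 with filterByExpr (18976 tested). DESeq2 called 20 (30 at an adjusted p-value under 0.1), and 15 each for EE21D over EE1D and the interaction. At an unadjusted p-value under 0.05, the lower transcripts numbered 872 without a filter, 692 with filterByExpr and 263 with the isolated rats alone, and the higher ones 209 with a minimum of 50 counts and 200 with the covariate, beside 333 higher and 423 lower. The causes were not tested, beyond the number of transcripts or rats that each setting uses. CPM without TMM scaling gave 89 transcripts above and 583 below. The median SD in IC21D was 0.298 without A24.

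Leaving out each rat in turn gave 0 to 1 edgeR calls in the Incubation contrast, 0 to 4 in EE21D over EE1D, 0 to 3 in the interaction and 6 to 179 DESeq2 calls in the Incubation contrast. At an unadjusted p-value under 0.05 it gave 159 to 682 higher and 144 to 648 lower, and separated transcripts numbered 709 to 1540 above and 879 to 1559 below, where 2 rats against 3 separate more easily. Of 492 alternative values for 22 described transcripts, all kept their direction and 18 passed a threshold that the main value did not, 16 of them with DESeq2. The 22 were chosen by p-value or separation from the same counts. Their kept direction follows largely from that choice and is no separate support. The DESeq2 fits without single rats, the covariate, the levels without A24 and the same-sign shares were chosen after seeing the data. No paired analysis was possible because the labels give the groups no shared replicate numbers. Sums of isoforms per gene were not run, because no table used here pairs transcripts with genes.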
